A study of Mus musculus with 6 samples.

Results

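The Notch pathway genes described here were 3 receptors (Notch1, Notch2 and Notch3), 3 ligands (Jag1, Jag2 and Dll1), 2 target genes (Hes1 and Hey1) and 2 members of the nuclear complex (Rbpj and Maml1). They were chosen by gene symbol, and all 10 were found among the 17866 genes of the table. The samples were corneal epithelium of C57BL/6 mice at 6 months of age, with 3 libraries labelled wild type (WT) and 3 labelled Rela-/- (KO). Rela encodes the p65 subunit of NF-κB. According to the study's methods the mutants were Krt14-Cre; Rela f/f mice and the WT samples came from age-matched control mice, whose Cre and floxed alleles are not given in the sources used here. Krt14-Cre acts in K14-expressing epithelia of the body surface, so the limbus, conjunctiva, meibomian glands and skin of a mutant also lost the gene, while stromal, vascular and immune cells are not targeted by this Cre. Each library came from an independent biological sample.

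Notch signalling passes between touching cells. A ligand of the Jagged or Delta-like family on one cell binds a Notch receptor on its neighbour, ADAM proteases and then γ-secretase cut the receptor, and the freed intracellular domain enters the nucleus. There it joins the DNA-binding protein RBPJ and a Mastermind-like coactivator, and genes of the Hes and Hey families, which encode transcriptional repressors, are switched on. In stratified epithelia such as epidermis and cornea the pathway is known for its part in the differentiation of keratinocytes and in keeping the corneal fate of the epithelium.

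The mRNA of all 3 ligands, of the receptor Notch3 and of the target Hes1 was lower in KO, with Dll1 lowest, at 21.7% of its WT level, in an entry of the table that may also hold reads of a lincRNA on the opposite strand. Notch1, Notch2 and Maml1 did not pass the test in either direction. Rbpj was at 84.5% of WT, in a call that depended on the processing, and Hey1 was near the detection floor. Of the 9 members tested, 6 were called lower and 0 higher at an adjusted p of 0.05 (edgeR quasi-likelihood test), and their median log2 fold change was -0.67. Over all 13305 genes tested, 30.2% were called lower and 31.8% higher, with a median log2 fold change of 0.01, so a call in either direction was common among all genes in this comparison.

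The genomic stretches below are shown because the mutant lacks an NF-κB subunit and because RBPJ binds DNA, and they hold matches to a κB motif or to the core of the RBPJ site. In the RefSeq promoter table of GRCm38.p6, 8 of the 10 members had 10 windows of 250 bases before a transcript start, and Hes1 and Hey1 had no entry. Capitals mark the match. Each stretch ends before the first base that the GENCODE M21 annotation counts as exon, except the 30-base site of Dll1.
Dll1, chr17:15375885-15375914, minus strand, κB motif: ggtgcggcacGGAGCCTCCCacgcttcggc
Notch2, chr3:98013288-98013526, plus strand, κB motif: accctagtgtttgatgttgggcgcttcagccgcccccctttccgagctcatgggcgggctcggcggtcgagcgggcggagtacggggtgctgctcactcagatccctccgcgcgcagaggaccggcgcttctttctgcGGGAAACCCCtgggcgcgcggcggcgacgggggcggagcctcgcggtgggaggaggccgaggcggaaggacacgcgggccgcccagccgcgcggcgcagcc
Rbpj, chr5:53590096-53590213, plus strand, core of the RBPJ site: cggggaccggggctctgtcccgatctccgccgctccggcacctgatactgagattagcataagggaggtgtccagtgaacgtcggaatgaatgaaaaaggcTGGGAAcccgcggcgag

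The κB motif, searched on both strands and chosen after the expression values had been seen, was present in the windows of 2 members, Dll1 and Notch2, and in 7.25% of all 32851 windows of the same length. It began 81 bases before an internal transcript start of Dll1 and 112 bases before the start of Notch2. The motif reads GGGRNNYYCC, where R is A or G, Y is C or T and N is any base. In Dll1 it reads so on the plus strand, opposite to the strand printed. Dll1 fell and Notch2 was not called, so these 2 members with a match had different outcomes. The core of the RBPJ site, TGGGAA, was found for Rbpj alone among the 8 members and in 21.6% of all windows. An Rbpj window held it at 149 and 65 bases before an internal transcript start of Rbpj, not before the start of the gene. The second of these matches also lies in the other Rbpj window. It was not printed, because it lies beyond the first exonic base, where the printed stretch ends. CACNAG, the N box that Hes proteins bind, was present in the windows of Notch1, Notch2 and Notch3 and in 36.7% of all windows, and the E box CACGTG was found in none of the members' windows and in 6.02% of all windows. The letters of the κB motif do not overlap the other motifs in the stretches printed. A match is a description of the letters only.

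The count of reads in a library lay between 20158404 and 20880347, and values below are estimated counts as deposited, counts scaled by TMM factors to a library total of 1000000 (CPM), or TPM, which also divides by gene length. TPM values carry no TMM factor, so changes between genotypes were taken from CPM and the fit on counts. As a check of the labels, Rela had WT counts of 1871, 1844 and 1855 against KO counts of 318, 223 and 313, or 16.5% of the WT level in KO (log2 fold change -2.60, SE 0.141, adjusted p = 2.74e-06, edgeR). Among corneal epithelial markers, 6 of 6 were called lower, and their summed level was 112000 to 119000 TPM in WT and 20500 to 23400 TPM in KO. Among upper epidermal markers, 6 of 6 were called higher, from a summed 14.6 to 21.6 TPM in WT to 15300 to 23000 TPM in KO. The part of this exchange of markers in the Notch values was not tested, and in bulk samples fewer cells of a type and less RNA per cell cannot be told apart. The exact interval given for Hey1 and the floor on counts cover counting error only. The intervals of the edgeR fit also include the spread between libraries.

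Among the receptors, Notch3 was the most abundant per length in both genotypes and was the one that fell. Notch3 (gene 18131, GRCm38 chr17:32120820-32166896, minus strand) had WT counts of 8585, 7118 and 6827 against KO counts of 4954, 3106 and 3222. All KO libraries lay below all WT libraries, and KO replicate 1 lay nearest to WT. Its mean was 349 ± 38.3 CPM in WT against 189 ± 53.6 CPM in KO (SD, n = 3 per group), a level of 54.1% of WT. The log2 fold change was -0.89 (SE 0.189, 95% interval -1.32 to -0.45, adjusted p = 0.00368, edgeR), and it lay between -1.14 and -0.60 over 18 alternative fits, all of which called the gene lower.

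Notch1, the receptor best known for its role in keratinocyte differentiation (gene 18128, chr2:26457902-26503822, minus strand), had WT counts of 3090, 3067 and 2668 against KO counts of 4102, 2604 and 2666. The groups overlapped, because KO replicate 1 was the highest of the 6 libraries while the other KO libraries lay below WT in raw counts. The mean was 137 ± 9.13 CPM in WT against 157 ± 43.9 CPM in KO. The log2 fold change was 0.20 (SE 0.177, 95% interval -0.21 to 0.60, adjusted p = 0.356, edgeR). Without KO replicate 1 the value was -0.05, and with a correction for gene length it was 0.44 and called higher (adjusted p = 0.0476, edgeR).

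Notch2, a receptor with the same overall architecture (gene 18129, chr3:98013538-98150367, plus strand), had WT counts of 2962, 2808 and 2796 against KO counts of 3494, 2361 and 2555. KO replicate 1 was again the highest library and the other KO libraries were the lowest. Its level was 133 ± 2.56 CPM in WT against 141 ± 31.5 CPM in KO, and the log2 fold change of 0.08 (SE 0.146, 95% interval -0.25 to 0.42, adjusted p = 0.639, edgeR) was smaller than the spread between KO libraries. Without KO replicate 1 it was -0.11. Notch4, the endothelial receptor, had WT counts of 8, 7 and 7 against KO counts of 8, 8 and 11 and was too low to test.

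KO replicate 1 was above the mean of the other KO libraries by 0.66, 0.53 and 0.67 on the log2 scale for Notch1, Notch2 and Notch3. After a correction for GC content these differences were 0.51, 0.46 and 0.43. Over the tested genes, which do not replicate each other, the deviation of this library from its group had a Spearman correlation of 0.389 with GC content and 0.142 with length. The shift was not limited to receptors: the same library was above the other KO libraries by 0.35 for Jag1, 0.33 for Dll1, 0.28 for Maml1 and 0.22 for Jag2, and by 0.02 and 0 for Hes1 and Rbpj. After the GC correction these values were 0.39, 0.25, 0.18 and -0.07, and 0.02 and 0.12, so Jag2 no longer shared the shift.

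**Figure D1:**
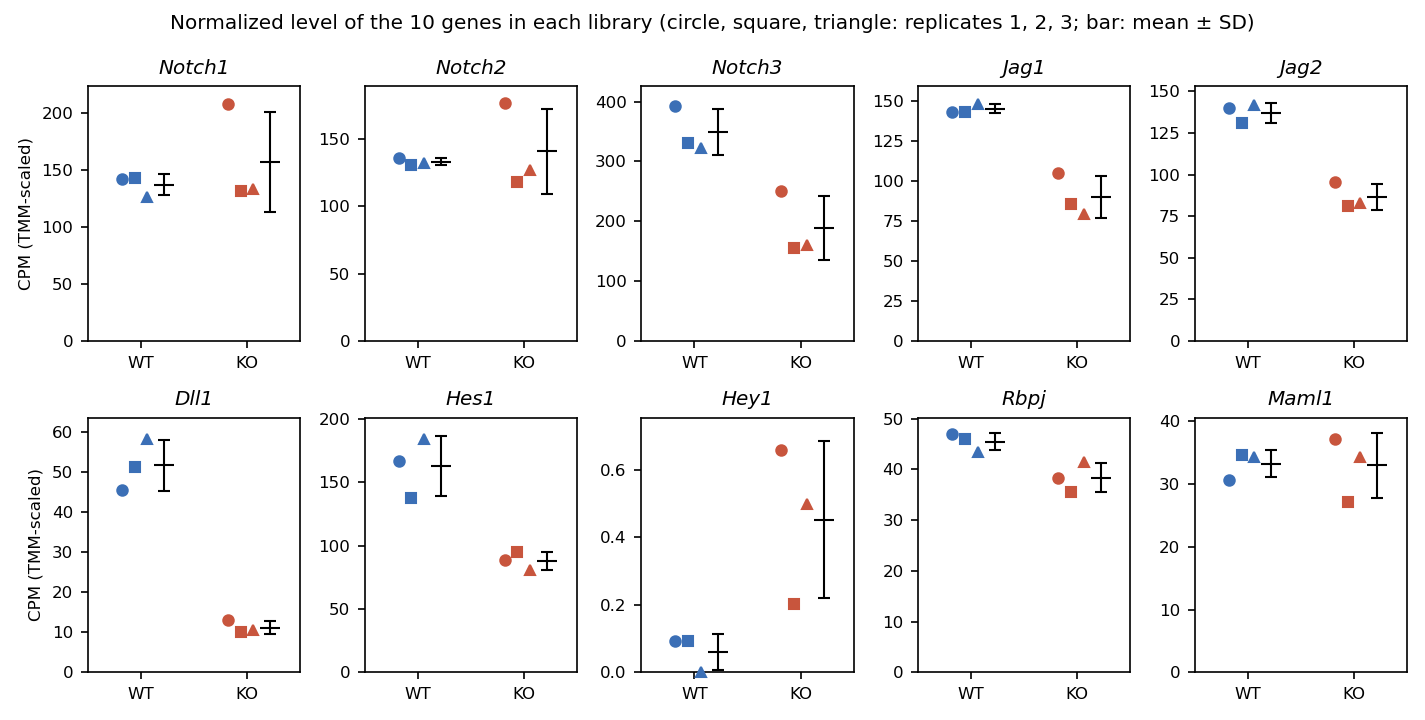
Normalized level in CPM (vertical axes, from 0) of the 10 genes in the 3 WT (blue) and 3 KO (red) libraries, with replicates 1, 2 and 3 as circle, square and triangle and the mean ± SD as a bar. The groups are apart for Notch3, Jag1, Jag2, Dll1, Hes1 and Rbpj and overlap for Notch1, Notch2 and Maml1, Hey1 is higher in KO at a level near 0, and KO replicate 1 is the highest KO library for 8 of the 10 genes, all but Hes1 and Rbpj.

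As a share of the TPM of the 4 Notch receptors, Notch3 made up 63.85%, 60.07% and 60.9% in the WT libraries and 44.69%, 43.61% and 43.36% in the KO libraries. The Notch1 share was 20.4% ± 1.28 in WT and 30.8% ± 0.483 in KO, and the Notch2 share was 17.9% ± 1.12 and 25.2% ± 1.11 (SD, n = 3 per group). The summed receptor level was 155 ± 18.3 TPM in WT and 92.4 ± 24.9 TPM in KO, without a TMM factor. By mean TPM, Notch1 and Notch2 were lower in KO, but by mean CPM they were at 115% and 106% of WT. By mean CPM, Notch3 was at 54.1% of WT. KO replicate 1, whose receptor levels stood apart, had nearly the same composition as the other KO libraries.

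Ratios of 2 genes within a library do not depend on the scaling of that library. The log2 ratio of Notch1 to Notch3 in TPM was -1.72, -1.46 and -1.60 in WT and -0.52, -0.50 and -0.52 in KO, a difference of 1.09 with no overlap (two-sided exact permutation test, p = 0.1, 0.175 after adjustment over 7 gene pairs). For Notch2 to Notch3 the difference was 0.98 (exact permutation p = 0.1, adjusted 0.175), and the ratio of Notch1 to Notch2 differed by 0.10 (exact permutation p = 0.2, adjusted 0.233). With 3 libraries against 3 the smallest p this test can give is 0.1, so no ratio could pass 0.05.

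All 3 ligands were called lower, with a larger log2 fold change for Dll1 than for the Jagged genes. Dll1, which encodes Delta-like 1 (gene 13388, chr17:15367354-15376932, minus strand), had WT counts of 994, 1101 and 1230 against KO counts of 257, 203 and 210. The lowest WT library was far above the highest KO library. Its level was 51.7 ± 6.36 CPM in WT against 11.2 ± 1.56 CPM in KO, 4.6-fold lower in the mutant. The log2 fold change was -2.20 (SE 0.14, 95% interval -2.52 to -1.88, adjusted p = 5.92e-06, edgeR). Only 2.2% of tested genes had a log2 fold change as low or lower.

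The Dll1 entry of the deposited table is listed on the plus strand and reaches to position 15379475, which is the end of A930024N18Rik, a lincRNA that GENCODE M21 places on the plus strand at chr17:15375000-15379475 and that shares 867 exonic bases with Dll1. No source used here says whether reads were counted by strand, so reads of Dll1 and of this lincRNA cannot be told apart in the table. The effective length of the entry, as implied by its counts and FPKM, was 3571, 3566 and 3550 bases in WT and 3633, 3558 and 3631 bases in KO. The longest spliced Dll1 transcript has 3581 bases and the lincRNA 3955 bases. The κB match printed above also lies in exons of both genes.

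Jag1, the gene of Jagged 1 (gene 16449, chr2:137081451-137116520, minus strand), had WT counts of 3116, 3078 and 3128 against KO counts of 2066, 1700 and 1593. The WT libraries were nearly equal and all lay above KO. Its level was 145 ± 2.98 CPM in WT against 89.8 ± 13.2 CPM in KO, or 62.0% of WT (log2 fold change -0.69, SE 0.112, 95% interval -0.95 to -0.43, adjusted p = 0.000855, edgeR).

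Jag2, which encodes Jagged 2 (gene 16450, chr12:112907803-112929812, minus strand), had WT counts of 3046, 2811 and 2993 against KO counts of 1890, 1613 and 1666. As for Jag1, the groups did not overlap. The level was 137 ± 5.79 CPM in WT against 86.5 ± 8.01 CPM in KO, or 63.0% of WT (log2 fold change -0.67, SE 0.0939, 95% interval -0.88 to -0.45, adjusted p = 0.000395, edgeR). Dll1, Jag1 and Jag2 were called lower in each of 18 alternative fits, with log2 fold changes from -2.32 to -1.99, from -0.81 to -0.44 and from -0.76 to -0.47.

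The Jagged genes kept nearly the same ratio to each other. The log2 ratio of Jag1 to Jag2 in TPM differed by -0.05 between KO and WT (two-sided exact permutation test, p = 0.6, adjusted 0.6). The log2 ratio of Jag1 to Dll1 was 0.99, 0.82 and 0.68 in WT and 2.36, 2.39 and 2.29 in KO, a difference of 1.51 (exact permutation p = 0.1, adjusted 0.175). For Jag2 to Dll1 the difference was 1.56, with the same p-values. Of the summed TPM of 5 ligand genes, Dll1 took 21.1% ± 1.93 in WT and 8.38% ± 0.155 in KO, Jag1 37.4% ± 0.729 and 42.6% ± 1.45, and Jag2 41.4% ± 1.48 and 48.7% ± 1.52.

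**Figure D2:**
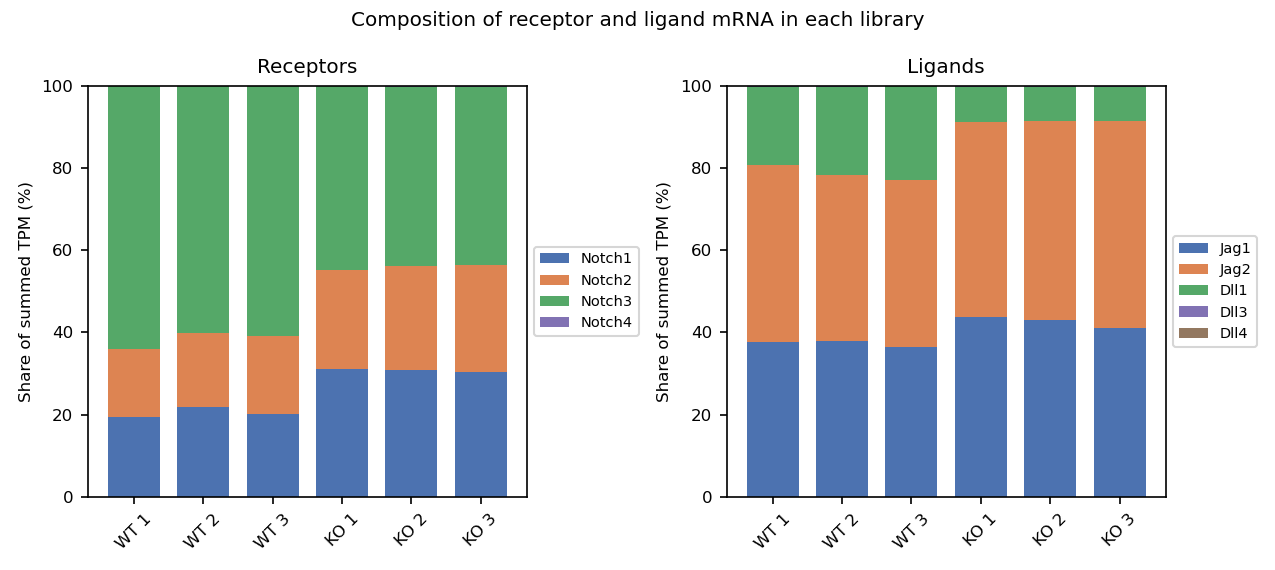
Share of the summed TPM in percent (vertical axes) taken by each receptor gene (left) and each ligand gene (right) in every WT and KO library. Notch3 takes 60.07% to 63.85% of receptor TPM in WT and 43.36% to 44.69% in KO, and Dll1 takes 18.97% to 22.77% of ligand TPM in WT and 8.21% to 8.52% in KO.

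The summed ligand level was 152 ± 2.62 TPM in WT and 64.9 ± 7.88 TPM in KO, without a TMM factor. By mean CPM, Jag1, Jag2 and Dll1 were at 62.0%, 63.0% and 21.7% of WT. Dll3, a Delta-like protein that does not activate the receptor from a neighbouring cell, and Dll4, the Delta-like ligand known from vessels, were too low to test, with at most 5 counts for Dll3 and 2 for Dll4 in any library. Dlk2, a related membrane protein without the domain that activating ligands share, had WT counts of 112, 122 and 117 against KO counts of 186, 152 and 199. It was called higher (log2 fold change 0.72, SE 0.153, adjusted p = 0.00348, edgeR), with no overlap between the groups.

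Of the Hes and Hey genes, Hes1 was the most abundant per length (gene 15205, chr16:30065357-30067796, plus strand). It encodes a repressor of the basic helix-loop-helix class and is a direct Notch target in many cell types. It had WT counts of 3636, 2964 and 3891 against KO counts of 1745, 1887 and 1617. The KO libraries lay close together, and all of them were below the lowest WT library. Hes1 was at 163 ± 23.4 CPM in WT against 87.9 ± 7.05 CPM in KO, or 53.9% of WT (log2 fold change -0.89, SE 0.122, 95% interval -1.17 to -0.61, adjusted p = 0.000337, edgeR), and it was called lower in each of 18 alternative fits (-1.15 to -0.78).

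Hey1, a related repressor (gene 15213, chr3:8663359-8667038, minus strand), had WT counts of 2, 2 and 0 against KO counts of 13, 4 and 10. The WT libraries were within the floor of 3 counts and all KO libraries were above them. The gene did not pass the filter on low counts. Per library total, the summed 27 counts of KO were 6.82 times the summed 4 counts of WT, with an exact conditional 95% interval from 2.38 to 26.8 that covers counting error only. Without a filter it was called higher by edgeR (log2 fold change 2.73, adjusted p = 0.0217) and by DESeq2 (2.88, adjusted p = 0.0302).

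Hes1 accounted for 92.1% ± 1.76 of the TPM of the Hes and Hey genes in WT and 88.0% ± 1.09 in KO. Hes6, which encodes an inhibitor of Hes1, had WT counts of 299, 276 and 220 against KO counts of 185, 225 and 209. The groups overlapped, and the log2 fold change was -0.25 (SE 0.144, 95% interval -0.58 to 0.08, adjusted p = 0.162, edgeR). Hes2, Hes3, Hes5, Hes7, Hey2 and Heyl were too low to test. Hes2 had WT counts of 9, 9 and 9.01 against KO counts of 5, 8.07 and 3, and Hes7 had at most 4 counts in WT and 13.18, 1.85 and 14.06 in KO. Hes3, Hes5, Hey2 and Heyl had at most 3 counts in every library.

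Rbpj, the DNA-binding partner of the Notch intracellular domain (gene 19664, chr5:53555779-53657445, plus strand), had WT counts of 1024.77, 988.12 and 919.75 against KO counts of 757.15, 708.63 and 830.37. These counts were not whole in 6 of 6 libraries, which means that some reads were shared with other genes. All KO libraries lay below WT, but KO replicate 3 came near to WT replicate 3. Rbpj was at 45.5 ± 1.75 CPM in WT against 38.4 ± 2.92 CPM in KO, or 84.5% of WT (log2 fold change -0.24, SE 0.093, 95% interval -0.46 to -0.03, adjusted p = 0.048, edgeR). In 10 of 18 alternative fits the gene was not called. Without WT replicate 1, 2 or 3 the log2 fold change was -0.21, -0.23 and -0.26 (adjusted p = 0.142, 0.118 and 0.0727, edgeR), without KO replicate 1 or 2 it was -0.24 and -0.19 (adjusted p = 0.0766 and 0.12, edgeR), and with the length correction it was -0.03 (adjusted p = 0.804, edgeR).

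Maml1, the Mastermind-like coactivator of the complex (gene 103806, chr11:50255634-50293131, minus strand), had WT counts of 671, 745 and 726 against KO counts of 735, 543 and 691. The groups overlapped widely, and the lowest and the highest CPM value were both in KO, in replicates 2 and 1. Its level was 33.3 ± 2.19 CPM in WT against 33.0 ± 5.15 CPM in KO, and the log2 fold change was -0.01 (SE 0.129, 95% interval -0.31 to 0.28, adjusted p = 0.94, edgeR). The log2 ratio of Rbpj to Maml1 in TPM differed by -0.21 between KO and WT (two-sided exact permutation test, p = 0.2, adjusted 0.233).

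Like Dll1, the entries of Notch1 and Maml1 were listed on the plus strand although both genes lie on the minus strand. Their listed spans ended within 100 bases of a gene on the opposite strand, 0610009E02Rik for Notch1 and Gm26542 for Maml1, which share 1068 and 135 exonic bases with them. Notch3 shares 488 exonic bases with the antisense gene Gm17276, but its entry was listed on its own strand and span. Reads from these pairs cannot be told apart either. Jag1, Jag2, Notch2, Hes1 and Hey1 had no gene on the opposite strand in their listed spans. Rbpj had Gm10441 and Gm40304 there, which share 0 exonic bases with it. The entries of Notch2 and Rbpj were listed on their own strand but began at 97978923 and 53466115, before the gene starts of 98013538 and 53555779. Whether those added stretches bring in reads of other genes was not examined.

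Per length, the order of the members in WT was Hes1 (252 ± 32.3 TPM), Notch3 (95.7 ± 14.2 TPM), Jag2 (63.1 ± 3.17 TPM), Jag1 (56.9 ± 1.23 TPM), Dll1 (32.0 ± 2.75 TPM), Notch1 (31.6 ± 3.25 TPM), Notch2 (27.6 ± 1.49 TPM), Rbpj (20.1 ± 1.84 TPM), Maml1 (13.0 ± 0.622 TPM) and Hey1 (0.0733 ± 0.0635 TPM). Neighbours in this order did not overlap, except that the libraries of Notch1 overlapped those of Dll1 and of Notch2. In KO, Hes1 was still first at 108 ± 10 TPM, and Notch3 (40.7 ± 11.7 TPM), Jag2 (31.6 ± 2.99 TPM), Notch1 (28.5 ± 8.06 TPM), Jag1 (27.7 ± 4.19 TPM) and Notch2 (23.1 ± 5.21 TPM) followed, each overlapping the next. Rbpj (13.5 ± 1.13 TPM) and Maml1 (10.2 ± 1.54 TPM) came next, and Dll1 (5.44 ± 0.737 TPM) moved from the fifth place to the last before Hey1 (0.357 ± 0.182 TPM).

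The threshold of the study asked for an adjusted p no higher than 0.001 and a change of 2-fold or more. By this rule Dll1 was the 1 member called lower, beside 8.24% of all tested genes. In CPM, 6 of the 9 tested members had all KO libraries below all WT libraries, beside 33.9% of all tested genes, and 0 had all KO libraries above, beside 34.7%. The plot of alternative fits shows how far each member's value moved with the processing.

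**Figure D3:**
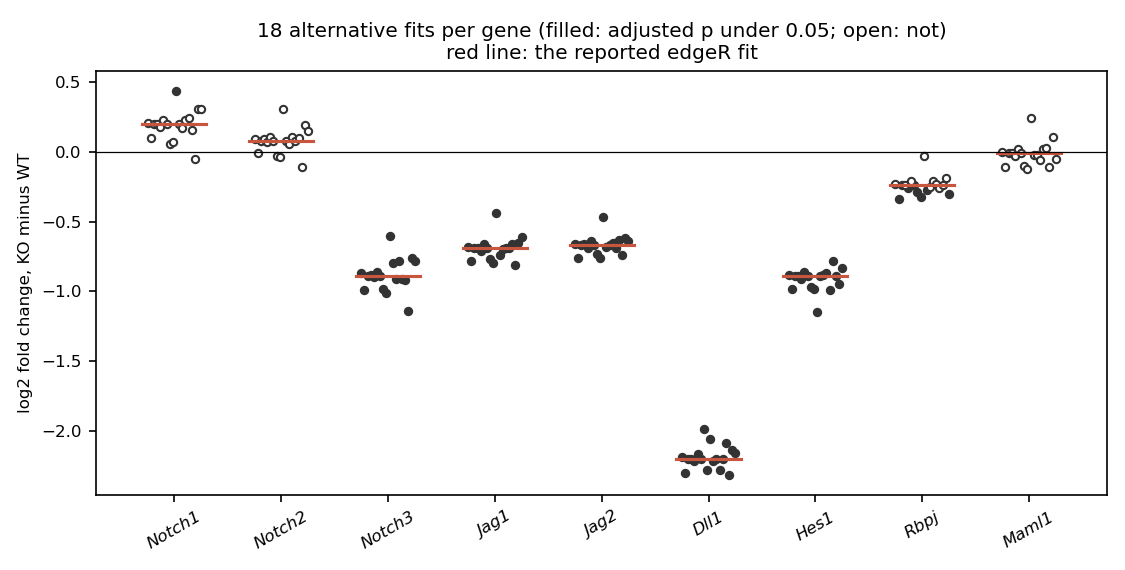
Log2 fold change of KO against WT (vertical axis) of the 9 tested members in the reported edgeR fit (red line) and in 18 alternative fits (points, filled where the adjusted p was under 0.05). Notch3, Jag1, Jag2, Dll1 and Hes1 stay below 0 with filled points throughout, Rbpj is filled in 8 of 18, and Notch1, Notch2 and Maml1 scatter around 0 with 1 filled point, that of Notch1 at 0.44.

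Other genes of the pathway were taken from a list by role with 60 genes in the table, of which 49 were tested. In this list 10 genes were called higher, 13 lower and 26 not, with a median log2 fold change of -0.05. Of all 13305 genes tested, 31.8% were called higher and 30.2% lower. In the reported fit the list had a smaller share of calls in each direction, and the gap was wider for calls higher. With total counts only and in both limma fits, 19 of the list were called lower, and with the GC correction 17. Over all genes, calls lower numbered 4630, 4642 and 4633 in the first of these fits and 4092 with the GC correction, beside 4022 as reported. Calls higher in the list numbered 9 with total counts only, 7 in both limma fits, 11 with the GC correction and 14 with the length correction. Over all genes these were 3709, then 3740 and 3757, then 4273 and 4166, beside 4231 as reported.

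In the first steps of the pathway, on receptors and ligands, most tested genes were not called. Of 4 tested genes of receptor glycosylation, 1 was lower, Pofut1, which adds the O-fucose that ligand binding needs (log2 fold change -0.63, SE 0.101, adjusted p = 0.000819, edgeR). Among 3 tested genes of ligand endocytosis, 1 was lower, the ubiquitin ligase gene Mib2. It had WT counts of 947, 693 and 767 against KO counts of 285, 235.65 and 201, or 32.4% of WT (log2 fold change -1.62, SE 0.165, adjusted p = 6.82e-05, edgeR).

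Receptor cleavage genes moved both ways, with 3 of 10 higher, 1 lower and 6 not called. Psen2, 1 of the genes for the catalytic subunit of γ-secretase, had WT counts of 221, 175 and 199 against KO counts of 53, 69 and 59, or 32.8% of WT (log2 fold change -1.61, SE 0.171, adjusted p = 8.59e-05, edgeR). Aph1b, a γ-secretase subunit gene whose counts were not whole, so that some reads were shared with other genes, rose 2.05-fold (log2 fold change 1.03, SE 0.164, adjusted p = 0.000752, edgeR). Adam10, the protease of the first cut, was also higher (log2 fold change 0.31, SE 0.0774, adjusted p = 0.00741, edgeR), a call lost in both limma fits on FPKM. Psenen, another subunit, was called higher at 0.63 (SE 0.101, adjusted p = 0.000779, edgeR) but at -0.29 with the length correction, where it was called lower.

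Of 10 genes that inhibit the receptor or set its turnover, 1 was higher, 3 lower and 6 not called. Numbl, a relative of the Notch inhibitor Numb, rose 1.82-fold (log2 fold change 0.86, SE 0.202, adjusted p = 0.00578, edgeR). The Deltex family gene Dtx3l fell to 47.4% of WT (log2 fold change -1.08, SE 0.113, adjusted p = 8.01e-05, edgeR). Dtx4 (log2 fold change -0.82, adjusted p = 0.032, edgeR) lost its call with the length correction, with the replicate number as a block, and without WT replicate 3, KO replicate 2 or KO replicate 3, and Dtx2 (-0.39, adjusted p = 0.0208, edgeR) without WT replicate 1, WT replicate 3, KO replicate 2 or KO replicate 3, with adjusted p-values of at most 0.131 and 0.0794. Nrarp, a feedback inhibitor that Notch itself induces, was named after its value was seen: it had WT counts of 1793, 2266 and 2091 against KO counts of 2524, 1982 and 2268, and its log2 fold change of 0.25 (95% interval -0.04 to 0.54, adjusted p = 0.122, edgeR) did not pass the test.

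In the nucleus, 4 of 7 coactivator genes were lower and 0 higher. Maml2, a Mastermind-like paralogue of Maml1, had WT counts of 1085.67, 986.84 and 950.36 against KO counts of 351, 413 and 306.12, or 38.2% of WT (log2 fold change -1.39, SE 0.126, adjusted p = 3.77e-05, edgeR), whereas Maml1 was not called. Whether the paralogues differed in their change was not tested. The histone acetyltransferase genes Ep300 and Kat2b had log2 fold changes of -0.62 (SE 0.107, adjusted p = 0.0012, edgeR) and -0.50 (SE 0.0975, adjusted p = 0.00238, edgeR).

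Corepressor genes moved both ways, with 4 of 9 higher, 1 lower and 4 not called. Tle1, a Groucho-type corepressor that Hes proteins recruit, had WT counts of 16.24, 22.12 and 41.93 against KO counts of 321.54, 278.54 and 341.4. The KO libraries were close together and far above WT, and Tle1 rose 12.6-fold (log2 fold change 3.66, SE 0.298, adjusted p = 2.18e-05, edgeR). Its counts were not whole, so the gene shares reads with others. The histone deacetylase gene Hdac2 rose 1.71-fold (log2 fold change 0.78, SE 0.094, adjusted p = 0.000172, edgeR). Ctbp1 had a log2 fold change of -0.27 (adjusted p = 0.045, edgeR) with overlapping groups and the call lost with RLE factors, with a mean count of at least 50, without any 1 of the WT libraries, without KO replicate 2 and without KO replicate 3 (adjusted p of at most 0.148).

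Genes that Notch controls in some cell types did not move in 1 direction. Myc, a growth regulator, had WT counts of 579, 508 and 647 against KO counts of 1759, 1314 and 1571, a 2.89-fold rise (log2 fold change 1.53, SE 0.141, adjusted p = 4.21e-05, edgeR). Ccnd1, the cyclin D1 gene, had WT counts of 9350.73, 10178.85 and 7131.06 against KO counts of 3169.74, 2505.7 and 3818.04, or 38.4% of WT (log2 fold change -1.38, SE 0.179, adjusted p = 0.000252, edgeR).

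**Figure D4:**
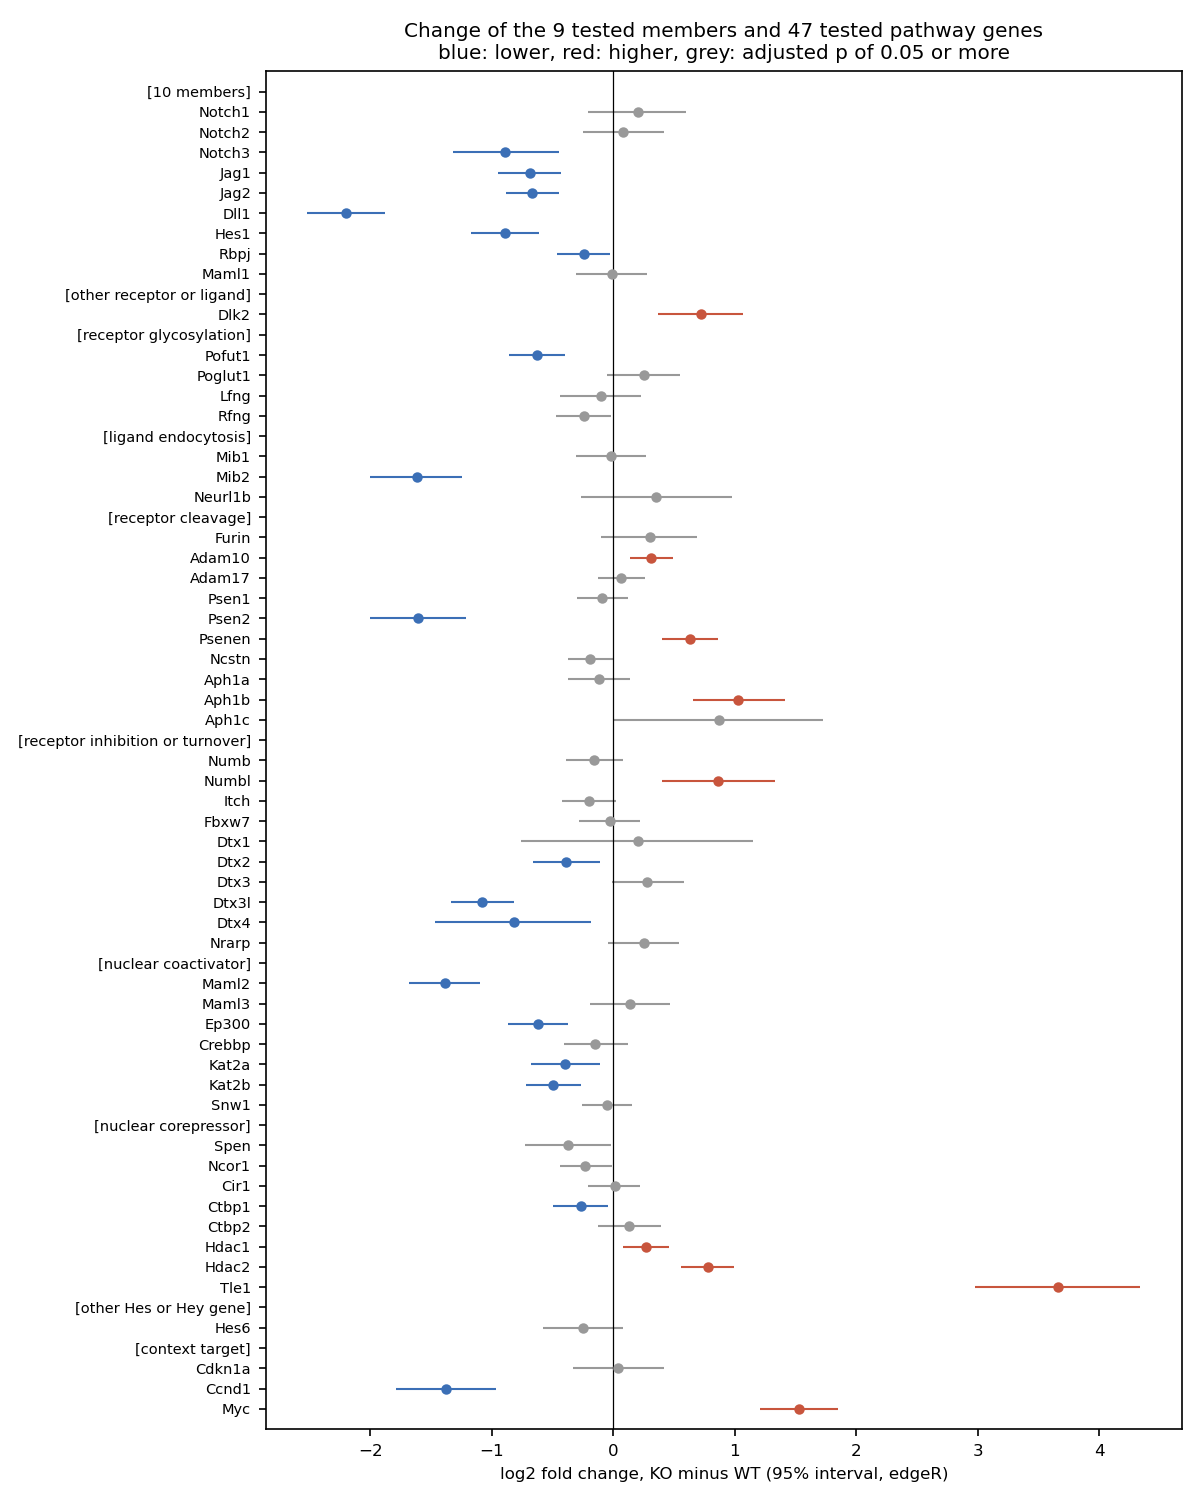
Log2 fold change of KO against WT with its 95% interval from edgeR (horizontal axis) for the 9 tested members and 47 of the 49 other tested pathway genes, grouped by role, with genes called lower in blue, higher in red and not called in grey. Dll1 at -2.20 is the lowest point and Tle1 at 3.66 the highest, and all ligands, but only 1 of 3 receptors, are called lower.

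Notch genes are also active outside the epithelium, in vessel walls above all, so markers of other cells were set beside these values. Of 6 blood vessel markers in the table, 2 were tested and 1 was called higher, and their summed level was 1.25 to 1.47 TPM in WT and 2.12 to 2.33 TPM in KO. Pecam1 had WT counts of 1, 3 and 4 against KO counts of 15, 14 and 16, while Kdr and Tek had at most 2 counts in any library. Of 6 mural cell markers, 2 were tested and both were higher, with a summed 1.54 to 2.62 TPM in WT and 7.39 to 14.0 TPM in KO, and the defining marker Pdgfrb had at most 3 counts in every library. The tested genes were Acta2 and Cspg4. The other mural markers overlapped between the groups, and Myh11 had at most 3.01 counts in WT and 1 in KO. Mural cells also express Notch3, and their part in its level was not tested.

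Most tested markers of stroma and of blood cells were higher in KO. Fibroblast or keratocyte markers summed to 38.2 to 65.7 TPM in WT and 111 to 129 TPM in KO, with 4 of 5 tested genes higher and 1 lower. Most of this sum was Fbln1, at 33.77, 61.47 and 36.55 TPM in WT and 121.25, 108.11 and 107.82 TPM in KO, while Pdgfra was called lower, at 9.23% of WT. Leukocyte markers summed to 54.2 to 64.1 TPM and 101 to 123 TPM, with 6 of 7 tested genes higher, and Ptprc had WT counts of 13, 5 and 8 against KO counts of 105, 87 and 123. Most of the WT sum was Cd68, at 48.72 to 60.12 TPM in WT and 36.31 to 51.13 TPM in KO, which was not called. Goblet cell markers summed to 2.85 to 5.21 TPM and 10.5 to 32.6 TPM, with 3 of 3 tested genes higher. Markers of nerve sheath or melanocytes summed to 7.71 to 8.42 TPM and 2.80 to 3.72 TPM, with 3 of 3 tested genes lower. The part of these cells in the levels of Hey1, Dlk2 and the other Notch genes was not tested.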

How the data were processed

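Bulk RNA-seq of separated corneal epithelium was analysed from the deposited table, which holds 1 column per library and unit. Reads were cleaned by the authors with SOAPnuke and aligned with Bowtie2 2.2.5, and they estimated levels with RSEM 1.2.12. The deposited estimated counts are not normalized, and between 34.1% and 36.1% of entries per library were not whole, within a tolerance of 0.001, because RSEM shares reads among genes. The deposited FPKM values are scaled by library total and effective length. The deposited TPM values sum to 1000000 per library. The labels name build mm9, but gene coordinates in the table are on GRCm38. The methods name ribosomal RNA depletion and a BGI sequencer, the labels an Illumina kit. Columns with the authors' log2 fold changes, p-values and q-values were not used.

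Rounded counts entered edgeR 4.0.16 under R 4.3.3 (TMM factors 0.952 to 1.05, filterByExpr, quasi-likelihood test, genotype only), with Benjamini-Hochberg adjustment over all genes tested. For log2 TPM ratios, exact permutation tests were two-sided (scipy 1.17.1). The 18 alternatives were DESeq2 1.42.0, total counts only, RLE factors, TMM without the 20 top genes, no filter, a mean count of at least 50, a robust fit, limma 3.58.1 on log2(FPKM + 1) and log2(FPKM + 0.1), length and GC corrections, a replicate block, and leaving out each library. The GC correction covered 98.4% of tested genes. The tests were tried on simulated data. Members and lists were chosen with earlier results of these data known. Named were all members, Rela, up to 3 called pathway genes per role and direction by absolute log2 fold change, every other receptor, ligand, Hes or Hey gene, and the defining markers. The other markers named were chosen after their values were seen. The values of 2 further named pathway genes are not reported here. In addition, 1 listed pathway gene and 2 vessel markers were not analysed here, nor was the ratio of Hes1 to Hey1, because Hey1 was at 0 in WT replicate 3. Plots were drawn with matplotlib 3.10.9.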

Additional observations from a re-analysis of the deposited data

How the results depend on the processing

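The calls of Notch3, Jag1, Jag2, Dll1 and Hes1 held in each of the 18 alternative fits. Over the tested genes, which do not replicate each other, the log2 fold change had a Spearman correlation of -0.207 with gene length. With the length correction it was -0.60 for Notch3, -0.44 for Jag1, -0.47 for Jag2, -2.06 for Dll1 and -1.15 for Hes1. The number of members called higher, 0 as reported, was 1 with DESeq2 and without a filter (Hey1 in both) and 1 with the length correction (Notch1). Signs of the members that were not called turned in some fits. Leaving out each library, the log2 fold change of Notch1 ranged from -0.05 without KO replicate 1 to 0.31 without KO replicate 2. Notch2 was at -0.01 with total counts only, -0.03 and -0.04 with limma on log2(FPKM + 1) and log2(FPKM + 0.1), and from -0.11 without KO replicate 1 to 0.19 without KO replicate 2. Maml1 was at 0.02 with a mean count of at least 50, 0.24 with the length correction, 0.02 and 0.03 without WT replicates 2 and 3, and 0.11 without KO replicate 2. On log2(FPKM + 1), the differences in the ratios of Jag1 and Jag2 to Dll1 were 1.23 and 1.27, since the added 1 shrinks the change of low values. With limma on that scale 987 genes passed the study threshold as higher, beside 1543 as reported. Total counts only moved the median log2 fold change of all genes to -0.09, and DESeq2 to 0.11.

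Replicate numbers are shared by the genotypes, but same-numbered libraries did not deviate together (correlations of 0.034, -0.010 and 0.061). With the replicate number as a block, Rbpj lost its call (log2 fold change -0.25, adjusted p = 0.073, edgeR), no other member's call changed, and 4149 genes were higher and 3934 lower, beside 4231 and 4022. The depth limits Hey1 and the other genes with a few counts, whose ratios carry a large counting error.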
